A study of Mus musculus with 23 samples.

Results

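The genes described here are 10 bile acid synthesis and transport genes, taken by name from a table of 48895 gene symbols: *Cyp7a1*, *Cyp8b1*, *Cyp7b1*, *Cyp27a1*, *Baat*, *Abcb11*, *Slc10a1*, *Slco1b2*, *Nr1h4*, and *Nr0b2*. The rule uses their names alone, and all 10 were in the table. RNA-seq covered 23 libraries, of which 5 were livers of mice given a sham injection, called control liver. The other 18 came from 9 mice with tumors, each of which gave a liver, called pre-metastatic liver, and a primary tumor. All mice were male BALB/c mice, 4 to 6 weeks old when they were divided into groups. Tumor-bearing mice received CT26 cells, a mouse colon carcinoma line from the same strain, in the wall of the cecum, and control mice received culture medium without serum at the same place. Tissues were taken after 3 weeks, when the study's histology showed tumors in the bowel and no metastasis in the liver. The model therefore rests on 1 cell line placed in the bowel of mice with an intact immune system, and a liver was called pre-metastatic because no metastasis was seen in it. Each library had 44587556 to 79773163 counts, and even the most alike pair of a group differed by far more than counting noise (chi-square 44.5 times its degrees of freedom). Each library of a group comes from a mouse of its own, so *p* values measure the spread between mice.

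Bile acids are made from cholesterol in hepatocytes. In the classic route CYP7A1 adds the first hydroxyl group and sets the rate, and CYP8B1 adds the hydroxyl group that turns the product into cholic acid, while in the alternative route CYP27A1 and CYP7B1 take the first steps. BAAT joins bile acids to taurine or glycine, ABCB11 (the bile salt export pump) moves them into bile, and SLC10A1 (NTCP) and SLCO1B2 take them up again from portal blood. NR1H4 (FXR) is the nuclear receptor that senses bile acids, and NR0B2 (SHP) is a repressor that FXR induces.

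The positions of the 10 genes are those of the deposited table, on mm10. *Cyp7a1* (chr4:6264113-6275631, minus strand), *Cyp7b1* (chr3:18071944-18243890, minus), *Cyp27a1* (chr1:74713146-74737897, plus), and *Baat* (chr4:49489416-49507916, minus) have 4 to 9 exons in their longest annotated coding transcript. *Cyp8b1* (chr9:121914356-121916305, minus) has 1 exon, which covers the whole of the gene. The transporters lie at chr2:69238282-69342843, minus (*Abcb11*, 29 exons), chr12:80953185-80968700, minus (*Slc10a1*, 6 exons), and chr6:141629452-141686646, plus (*Slco1b2*, 16 exons). The regulators lie at chr10:89454234-89533646, minus (*Nr1h4*, 10 exons), and chr4:133553376-133556686, plus (*Nr0b2*, 2 exons).

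Promoters, from 250 bases before to 50 bases after a RefSeq start site (GRCm38.p6), were matched for 7 of the 10 genes. *Cyp7a1*, *Cyp7b1*, and *Baat* were not matched. The 3 printed here are those of *Cyp8b1*, the gene that differed between the livers, and of *Abcb11* and *Nr0b2*, textbook targets of FXR. Capitals mark the match described after them, and each is read on the strand of its gene.
Cyp8b1 (chr9:121916256-121916555, minus): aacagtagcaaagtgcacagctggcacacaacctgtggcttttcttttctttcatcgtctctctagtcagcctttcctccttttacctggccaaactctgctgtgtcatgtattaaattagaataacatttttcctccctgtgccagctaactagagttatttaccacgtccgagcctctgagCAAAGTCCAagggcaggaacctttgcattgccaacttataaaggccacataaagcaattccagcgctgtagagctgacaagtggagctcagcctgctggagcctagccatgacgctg
Abcb11 (chr2:69342567-69342866, minus): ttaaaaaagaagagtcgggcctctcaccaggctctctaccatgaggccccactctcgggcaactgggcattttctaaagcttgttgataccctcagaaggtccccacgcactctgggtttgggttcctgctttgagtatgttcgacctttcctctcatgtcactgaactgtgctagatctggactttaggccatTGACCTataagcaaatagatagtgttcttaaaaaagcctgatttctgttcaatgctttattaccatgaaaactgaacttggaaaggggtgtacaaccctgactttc
Nr0b2 (chr4:133553126-133553425, plus): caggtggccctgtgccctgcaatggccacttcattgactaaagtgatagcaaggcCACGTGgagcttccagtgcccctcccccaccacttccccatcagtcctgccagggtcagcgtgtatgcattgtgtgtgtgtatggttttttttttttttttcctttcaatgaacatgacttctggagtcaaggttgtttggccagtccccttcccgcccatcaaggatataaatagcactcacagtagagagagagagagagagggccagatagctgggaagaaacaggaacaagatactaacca
Each promoter was searched on both strands for exact matches to 7 motifs, with no mismatch allowed. The half-site AGGTCA of nuclear receptors, present in 16.3% of 32817 promoters of the same length, was found in *Abcb11* (in capitals on the other strand, its first base at -56 from the start site), in *Slco1b2* at -81, in *Nr1h4* at -214, and in the second of the 2 *Slc10a1* promoters at -87. The inverted pair of half-sites (AGGTCA, any 1 base, TGACCT), to which FXR is known to bind, was in 0.00914% of promoters and in none of the windows of the 7 genes. The direct pair (AGGTCA, any 1 base, AGGTCA; 0.0396%), the extended half-site CAAGGTCA (1.56%), and the D-box TTATGTAA (0.935%) were likewise not in these windows. The E-box CACGTG, present in 7.15% of promoters, was found in *Nr0b2* at -195. The motif CAAAGTCCA, which HNF4 is known to bind and which 0.475% of promoters hold, was found in *Cyp8b1* at -67. This last motif was added to the search after the *Cyp8b1* sequence had been read. The AGGTCA half-site also lies within the inverted pair, the direct pair, and CAAGGTCA. In the *Abcb11* promoter the marked TGACCT follows aggccat. That stretch differs from the exact inverted pair in 1 base and was not counted.

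One of the 10 genes, *Cyp8b1*, differed between pre-metastatic and control liver, and it was lower in all 9 pre-metastatic livers than in any control liver. The other 9, including *Cyp7a1*, did not pass the test. The comparison asks whether the liver of a tumor-bearing mouse had changed before any metastasis was seen in it. Levels are RPKM, the count scaled to gene length and to the size of the library, and changes are log2 fold changes from edgeR's quasi-likelihood test, with *p* values adjusted by Benjamini-Hochberg over all 16987 genes tested and a call at an adjusted *p* under 0.05. Across those genes 31.0% were called in either direction, 13.3% as lower and 17.7% as higher, so that 1 call among 10 is below that share. The median log2 fold change of the 10 genes was -0.13, against 0.01 over all genes tested. In bulk tissue, fewer hepatocytes and less RNA per hepatocyte cannot be told apart.

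*Cyp7a1* had 26.2 RPKM in control mouse C1, 39.5 in C4, 57.3 in C5, 45.6 in C6, and 49.3 in C7. In pre-metastatic liver it ran from 11.1 (M5) through a median of 28.9 to 64.2 RPKM (M10). The groups overlapped, and the pre-metastatic livers held both the lowest and the highest level of this rate-setting enzyme. Its log2 fold change was -0.28 (SE 0.35, 95% confidence interval -1.02 to 0.46, edgeR adjusted *p* = 0.573), an interval that spans changes in both directions.

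*Cyp8b1*, which decides how much cholic acid is made, had 402 RPKM in C1, 322 in C4, 461 in C5, 270.0 in C6, and 182 in C7. In pre-metastatic liver it had a lowest level of 68.0 (M7), a median of 104, and a highest level of 127 RPKM (M8). The 2 groups did not overlap, which 6.09% of the genes tested did in this direction. The mean fell from 328 ± 109 (SD, *n* = 5) to 98.0 ± 19.4 RPKM (SD, *n* = 9), and the fitted level was 3.20-fold lower (log2 fold change -1.68, SE 0.19, 95% confidence interval -2.08 to -1.27, edgeR adjusted *p* = 4.46e-05). Of the genes tested, 0.971% had a lower log2 fold change. It kept its call in the 9 livers with a clock index below 0 and with that index as a covariate, which are described further on. By mean RPKM, *Cyp8b1* was the highest of the 10 genes in control liver and the fourth in pre-metastatic liver, behind *Slco1b2*, *Slc10a1*, and *Cyp27a1*. Its order in control liver was not beyond the spread, since it stood above *Slco1b2* (272 ± 49.0 RPKM) in 3 of 5 livers, and in pre-metastatic liver it stood above the next gene, *Abcb11*, in 7 of 9.

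The 2 enzymes of the alternative route did not pass the test. *Cyp27a1*, the mitochondrial enzyme that opens this route, had 186 RPKM in C1, 120.0 in C4, 264 in C5, 142 in C6, and 77.6 in C7, and from 67.0 (M12) through a median of 117 to 162 RPKM (M5) in pre-metastatic liver. The pre-metastatic values lay inside the control range apart from the liver of M12. The fitted log2 fold change was -0.39 (SE 0.24, 95% confidence interval -0.90 to 0.11, edgeR adjusted *p* = 0.223). *Cyp7b1*, which adds a hydroxyl group to the oxysterols of this route, had 64.5 RPKM in C1, 24.7 in C4, 37.3 in C5, 38.7 in C6, and 7.66 in C7. In pre-metastatic liver it ran from 5.30 (M6) through a median of 32.2 to 67.3 RPKM (M5). It was among the most variable of the 10 genes, with a coefficient of variation of 60.4% in control and 64.9% in pre-metastatic liver, and its log2 fold change of -0.14 had a wide interval (SE 0.52, 95% confidence interval -1.24 to 0.97, edgeR adjusted *p* = 0.866).

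*Baat*, the conjugating enzyme, had 72.4 RPKM in C1, 64.8 in C4, 89.5 in C5, 72.3 in C6, and 58.9 in C7, and 50.3 (M12), a median of 61.2, and 74.4 RPKM (M2) in pre-metastatic liver. The groups overlapped, and this gene varied the least of the 10 in control liver (coefficient of variation 16.1%). The log2 fold change was -0.13 (SE 0.10, 95% confidence interval -0.35 to 0.08, edgeR adjusted *p* = 0.337).

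Among the transporters, the export pump and both uptake carriers overlapped between the groups. *Abcb11* had 58.8 RPKM in C1, 72.5 in C4, 95.5 in C5, 80.4 in C6, and 50.1 in C7, and from 35.6 (M12) through a median of 79.5 to 119 RPKM (M8) in pre-metastatic liver. The pre-metastatic livers reached beyond the control range at both ends, and the log2 fold change was 0.12 (SE 0.27, 95% confidence interval -0.45 to 0.69, edgeR adjusted *p* = 0.766). *Slc10a1*, the sodium-dependent carrier of conjugated bile acids, had 252 RPKM in C1, 221 in C4, 211 in C5, 240.0 in C6, and 334 in C7, and from 168 (M8) through a median of 195 to 307 RPKM (M10). The log2 fold change was -0.09 (SE 0.16, 95% confidence interval -0.43 to 0.25, edgeR adjusted *p* = 0.696). *Slco1b2*, which carries bile acids and many drugs without sodium, had 194 RPKM in C1, 262 in C4, 291 in C5, 323 in C6, and 291 in C7, and from 141 (M6) through a median of 272 to 499 RPKM (M2). Its log2 fold change was 0.14 (SE 0.19, 95% confidence interval -0.27 to 0.55, edgeR adjusted *p* = 0.611).

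The receptor and its target also overlapped between the groups. *Nr1h4* had 35.1 RPKM in C1, 34.8 in C4, 34.3 in C5, 46.7 in C6, and 52.7 in C7, and 29.3 (M6), a median of 40.0, and 44.7 RPKM (M2) in pre-metastatic liver. Its log2 fold change was 0.02 (SE 0.12, 95% confidence interval -0.22 to 0.27, edgeR adjusted *p* = 0.902), the narrowest interval but one among the 10 genes. *Nr0b2* had 41.0 RPKM in C1, 11.3 in C4, 11.4 in C5, 19.6 in C6, and 68.4 in C7, and 8.46 (M6), a median of 13.5, and 29.0 RPKM (M2) in pre-metastatic liver. Mice C1 and C7 stood above every pre-metastatic liver and the other 3 control livers lay among them. Its log2 fold change was -0.85 (SE 0.38, 95% confidence interval -1.66 to -0.04, edgeR adjusted *p* = 0.104), and among 21 alternatives it passed the test only when control mouse C4 (log2 fold change -1.06, adjusted *p* = 0.0472) or C5 (-1.06, adjusted *p* = 0.0484) was left out.

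**Figure D1:**
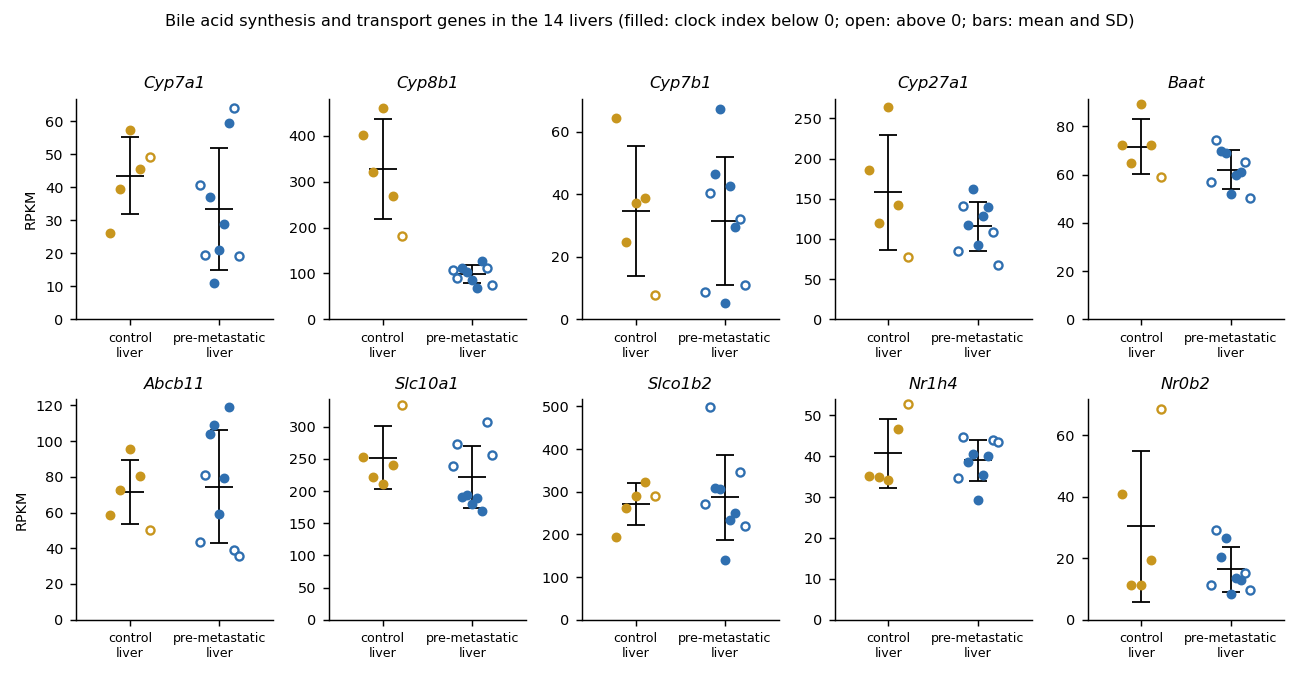
RPKM of the 10 genes (vertical axes, each from 0) in 5 control livers (yellow) and 9 pre-metastatic livers (blue), 1 point per liver, with mean and SD; filled points have a clock index below 0 and open points above 0. *Cyp8b1* is the one gene whose groups do not overlap, with control liver at 182 to 461 RPKM and pre-metastatic liver at 68.0 to 127 RPKM.

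Ratios of 2 genes within a liver do not depend on the scaling of the library. The ratio of *Cyp8b1* to *Cyp7a1* was 3.70 to 15.3 (median 8.05) in control liver and 1.75 to 9.32 (median 3.01) in pre-metastatic liver. The log2 ratio was 1.16 lower on average (exact two-sided Wilcoxon rank-sum test *p* = 0.0420, Benjamini-Hochberg adjusted over 3 ratios *p* = 0.126), so this difference did not hold after adjustment. Among the alternatives run it passed after adjustment only without pre-metastatic mouse M5, which had the lowest *Cyp7a1* and the highest ratio of its group (adjusted *p* = 0.0326). The ratio of *Cyp7b1* to *Cyp7a1*, the alternative against the classic route, had a median of 0.651 in control and 0.565 in pre-metastatic liver (exact *p* = 1.0). The ratio of *Abcb11* to *Slc10a1*, export against uptake, differed little in its median, 0.328 in control liver against 0.329 (exact *p* = 0.797, and 1.0 after adjustment). In the 9 livers with a clock index below 0, described further on, the pre-metastatic log2 ratio was 0.59 above that of control liver (exact *p* = 0.111, and 0.167 after adjustment).

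Around these 10 genes, the wider bile acid pathway moved in both directions. Of 21 other synthesis enzymes, all tested, 2 were higher and 8 lower in pre-metastatic liver, where 17.7% and 13.3% of all genes tested were. *Cyp39a1*, *Acox2*, *Hsd17b4*, *Slc27a2*, and *Cyp3a11* lay wholly below the control livers, as 6.09% of the genes tested did, and *Cyp2c70* lay wholly above them, which 4.85% of the genes tested did in that direction. Of 18 other transporters, 17 were tested, of which 3 were higher and 4 lower, beside 17.7% and 13.3% of all genes tested. The share of higher calls was near that of all genes, and *Slco1a4*, *Abcc3*, and *Abcb4* lay wholly below control. Of 21 regulators, 19 were tested, and the 6 that were called were all lower. Of all genes tested, 13.3% were called lower and 31.0% in either direction, and the share of regulators called was near the second. The lists hold textbook genes of the pathway, and only genes past the threshold are called higher or lower here.

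*Cyp2c70* makes the muricholic acids typical of mouse bile. It had 145, 69.0, 150.2, 96.9, and 50.6 RPKM in C1, C4, C5, C6, and C7, and from 198 through a median of 291 to 385 RPKM in pre-metastatic liver. It was 2.99-fold higher (log2 fold change 1.58, SE 0.27, edgeR adjusted *p* = 5.78e-04), so that *Cyp8b1*, on the way to cholic acid, and *Cyp2c70* moved in opposite directions. *Cyp39a1*, a hydroxylase of oxysterols, had 16.9, 7.38, 12.8, 4.64, and 11.5 RPKM in the control livers in the same order, and from 0.314 through 1.57 to 2.69 RPKM in pre-metastatic liver (log2 fold change -2.81, SE 0.44, edgeR adjusted *p* = 3.08e-04). *Cyp3a11*, which hydroxylates bile acids and drugs and is known as a target of the receptor PXR, was 8.02-fold lower (log2 fold change -3.00, SE 0.59; -2.38 without C5), with 892 to 5376 RPKM in control and 34.1 to 725 RPKM in pre-metastatic liver. Of the listed genes that activate, carry, or shorten the side chain, *Acox2* fell by 0.85, *Hsd17b4* fell by 0.72, *Slc27a2* fell by 1.09, and *Acot8* fell by 0.62 on the log2 scale. *Amacr* (log2 fold change 0.13), *Scp2* (-0.08), *Slc27a5* (0.11), and *Abcd3* (0.13), which act in the same steps, were not called. *Akr1c6* was the other gene that rose (log2 fold change 0.76), and *Fdxr*, which passes electrons to mitochondrial P450 enzymes, had a log2 fold change of -0.38. *Star*, which moves cholesterol into mitochondria, was called lower (log2 fold change -3.06) on the strength of 1 library, since C6 held 16.2 RPKM where the median of control liver was 0.285, and its log2 fold change without C6 was 0.11.

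The other transporters moved both ways. *Slco1a1* was 3.33-fold higher (log2 fold change 1.74, SE 0.36, edgeR adjusted *p* = 0.00225), with 15.9 to 72.5 RPKM in control and 36.5 to 174 RPKM in pre-metastatic liver. *Slco1a4* was 8.66-fold lower (log2 fold change -3.11, SE 0.43, edgeR adjusted *p* = 1.47e-04), with 28.9 to 56.3 RPKM in control and 1.24 to 8.91 RPKM in pre-metastatic liver. *Abcc3*, which exports bile acids back to blood, was 3.13-fold lower (log2 fold change -1.65), with 56.8 to 125 RPKM in control and 14.1 to 44.1 RPKM in pre-metastatic liver. *Abcb4*, the phospholipid pump that protects bile ducts from bile acids, was 2.16-fold lower (log2 fold change -1.11), with 75.3 to 113 against 22.9 to 62.2 RPKM. *Slc10a2*, the apical uptake carrier best known in ileum and bile ducts, was 2.72-fold higher (log2 fold change 1.44) at a low level, with 1.52 to 5.72 against 5.50 to 18.4 RPKM. *Ephx1*, an epoxide hydrolase that this list counts among the transporters (log2 fold change -0.95), lost its call without C5 (-0.63, edgeR adjusted *p* = 0.0644). *Atp8b1* (0.50) lost its call when C1, C4, C7, M7, or M8 was left out (0.44 to 0.48). *Abcc2* (log2 fold change -0.12), *Abcc4* (0.18), and *Slc51b* (-0.07) did not pass the test, although *Abcc2* passed in the livers with a clock index below 0 (-0.39, edgeR adjusted *p* = 0.0229).

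The regulators that passed the test all had lower levels in pre-metastatic liver. *Foxa2* (log2 fold change -1.32), *Mafg*, a repressor of bile acid synthesis genes (-0.75), and *Hnf4a* (-0.70) were among them, and *Nr1h3* and *Nr1h2*, the oxysterol receptors LXR alpha and beta, differed by -0.24 and -0.22. *Hnf4a*, a nuclear receptor that many of these promoters need, had 157 to 316 RPKM in control and 88.2 to 168 RPKM in pre-metastatic liver, and its call was lost without C5 (log2 fold change -0.58, edgeR adjusted *p* = 0.0544). Without C5, 3 of the regulators were called in place of 6. *Nr1h2* lost its call without C1, C4, or C5 (-0.21 to -0.19), and *Nr1h3* without C1, C4, C5, C6, C7, M1, M6, or M8 (-0.25 to -0.19). Both also lost their calls in the livers with a clock index below 0 (edgeR adjusted *p* = 0.0800 and 0.0724) and with that index as a covariate (adjusted *p* = 0.0644 and 0.0610). The receptor pair for the intestinal hormone FGF15 did not pass the test, with log2 fold changes of 0.10 for *Fgfr4* and -0.39 for *Klb*, although *Klb* passed without M6 (-0.58, edgeR adjusted *p* = 0.00394). *Nr5a2*, which drives *Cyp8b1* and *Cyp7a1* in textbook accounts, had a log2 fold change of -0.16 and did not pass. *Fgf15* itself had 0 RPKM in all 23 libraries.

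**Figure D2:**
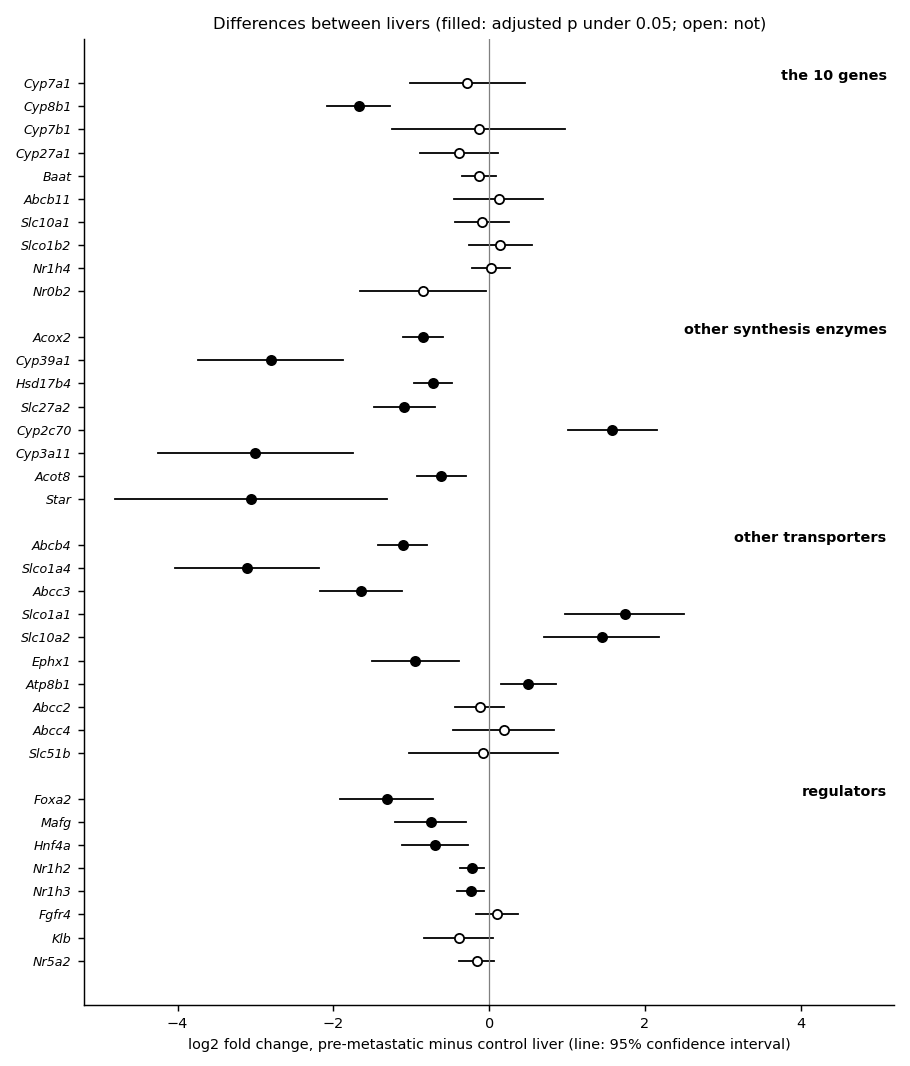
Log2 fold change of pre-metastatic against control liver (horizontal axis) with its 95% confidence interval for the 10 genes and for the named genes of the 3 other lists; filled points have an edgeR adjusted *p* under 0.05. *Cyp8b1* at -1.68 is the one filled point among the 10 genes, while the enzyme and transporter lists hold filled points on both sides of 0.

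**Figure D3:**
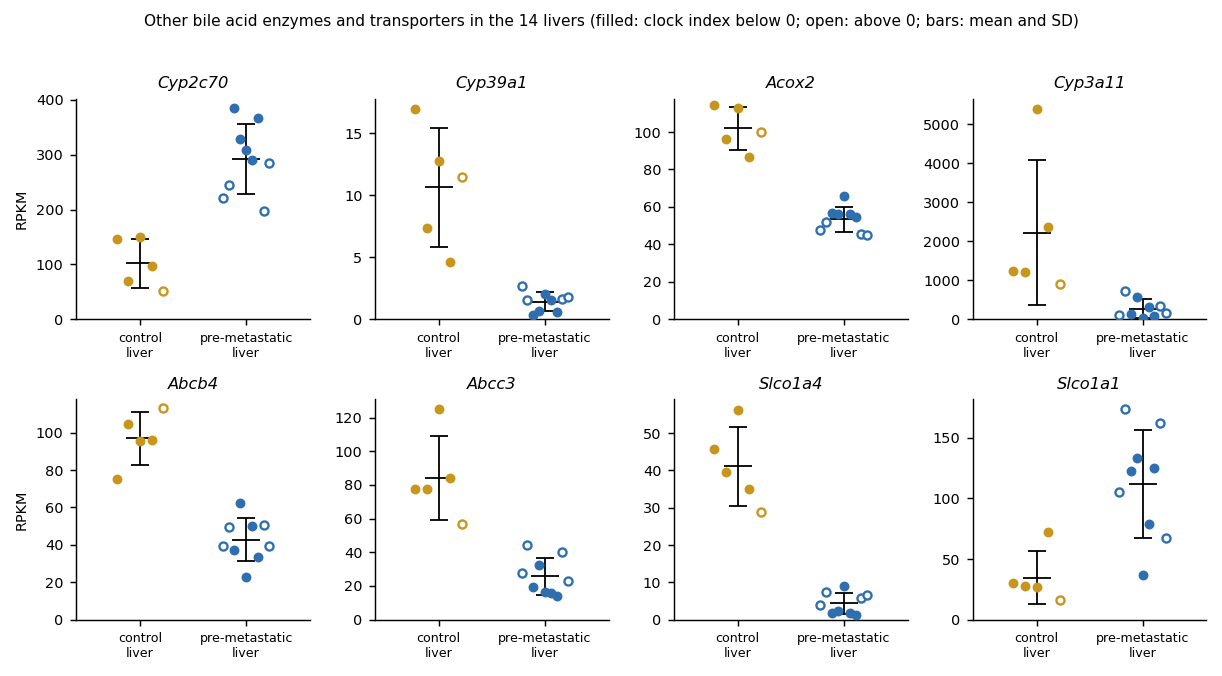
RPKM (vertical axes, each from 0) of 4 other enzymes and 4 other transporters in 5 control livers (yellow) and 9 pre-metastatic livers (blue), 1 point per liver, with mean and SD; filled points have a clock index below 0 and open points above 0. *Slco1a1* overlaps between the groups and the other 7 do not.

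Other cell types and states moved with the same comparison. The sum of the 8 hepatocyte markers in the table was 46835 to 57657 RPKM in control and 32367 to 71734 RPKM in pre-metastatic liver, and 1 of the 8, *Cps1*, was called lower, at a log2 fold change of -1.61. All 12 acute-phase genes were higher, among them *Saa2* (log2 fold change 5.28) and *Orm2* (5.28). Of the leukocyte markers 5 of 6 were higher, with a sum of 27.6 to 56.7 RPKM in control and 67.3 to 209 RPKM in pre-metastatic liver, and of the Kupffer cell markers 4 of 5, with a sum of 54.7 to 112 against 111 to 334 RPKM. Of the cholangiocyte markers *Krt19*, *Krt7*, and *Spp1* were higher, *Epcam* and *Sox9* were not called, and *Cftr* was too low to test, and the sum was 14.4 to 21.3 against 37.5 to 135 RPKM. Of 7 intestinal markers 4 were tested, with *Vil1* and *Krt20* higher and *Fabp2* lower. *Krt20* was near 0, at most 0.045 RPKM in control and 1.31 RPKM in pre-metastatic liver. The sum of the 7 was 55.1 to 316 RPKM in control and 16.3 to 94.3 RPKM in pre-metastatic liver. Among 5 sinusoidal endothelium markers *Stab2* was higher, and the 5 stellate cell markers had a median log2 fold change of -0.02. The part of these shifts in the bile acid genes was not tested.

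The hour at which the mice were killed is not given in the sources used here, and bile acid synthesis is known to follow a daily rhythm. A clock index was therefore computed for each liver from genes outside the 10, by standardizing 6 clock genes and subtracting the mean of *Arntl*, *Npas2*, and *Clock* from the mean of *Ciart*, *Dbp*, and *Per3*. It was above 0 in 1 of 5 control livers (C7) and in 4 of 9 pre-metastatic livers (M1, M2, M10, and M12). Among the 9 livers with an index below 0, *Cyp8b1* kept its difference (log2 fold change -1.82, edgeR adjusted *p* = 5.02e-04), as it did with the index as a covariate (-1.59, adjusted *p* = 1.31e-04). *Slc10a1* passed the test with the index as a covariate (log2 fold change -0.29, edgeR adjusted *p* = 0.0416) and not without it.

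Within the 9 pre-metastatic livers, 0 of the 10 genes were called against the clock index by edgeR, where 1.39% of 16206 genes were called (0.685% falling and 0.71% rising with the index). The smallest *p* values among the 10 were those of *Abcb11* and *Slc10a1*. DESeq2 called both, where it called 4.47% of all genes. Under other settings edgeR called *Abcb11* without a filter, with upper quartile scaling, and without M2, M6, or M7. It called *Slc10a1* with each index in a fit of its own. In these settings the edgeR adjusted *p* was 0.0149 to 0.0484, and 0.78% to 1.91% of all genes were called. *Abcb11* had 59.1 to 119 RPKM (median 104) in the 5 livers with an index below 0 and 35.6 to 81.1 RPKM (median 41.4) in the 4 with an index above 0. Its slope was -0.26 on the log2 scale per unit of the index (SE 0.05, edgeR adjusted *p* = 0.0528; DESeq2 adjusted *p* = 3.46e-04). *Slc10a1* ran the other way, with 168 to 195 RPKM in the first 5 and 240 to 307 RPKM in the other 4. Its slope was 0.13 (SE 0.03, edgeR adjusted *p* = 0.0720; DESeq2 adjusted *p* = 0.00176). The single control liver with an index above 0, C7, had the lowest *Abcb11* (50.1 RPKM) and the highest *Slc10a1* (334 RPKM) of its group. *Cyp7a1*, known for its daily rhythm, had a slope of 0.02 (SE 0.13) and was as scattered below as above 0. The acute-phase index, the mean standardized level of the 12 acute-phase genes, was related to 0 of the 10 genes by edgeR and by DESeq2. By edgeR 3 of 16206 genes (0.0185%) were called. All 3 were among the 12 genes of the index itself, so the 0 of 10 says little about the 10 genes. Among the 10 genes, *Nr0b2* (slope -0.45, SE 0.13, edgeR adjusted *p* = 0.285) and *Slco1b2* (slope -0.29, SE 0.12, edgeR adjusted *p* = 0.445) had the smallest *p* values, and neither was called.

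**Figure D4:**
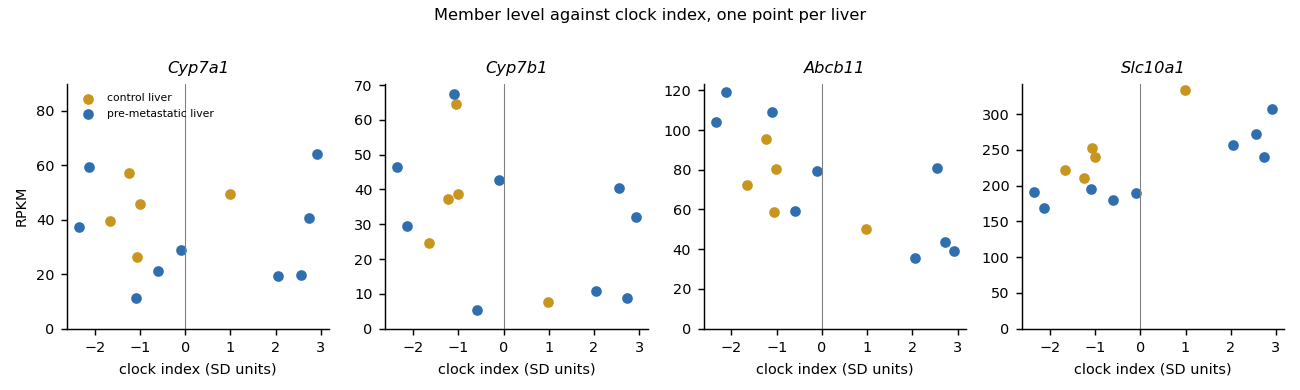
RPKM (vertical axes, from 0) of *Cyp7a1*, *Cyp7b1*, *Abcb11*, and *Slc10a1* against the clock index (horizontal axes, in SD units), 1 point per liver, control liver in yellow and pre-metastatic liver in blue. *Slc10a1* is at 240 to 307 RPKM in the 4 pre-metastatic livers to the right of 0 and at 168 to 195 RPKM in the 5 to the left. Its slope on the index was not called in the main fit (edgeR adjusted *p* = 0.0720).

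In the primary tumor, the 10 genes were close to absent. All 10 were lower than in pre-metastatic liver and all 10 were lower than in control liver, without overlap in either comparison. Both comparisons share the same tumors. Of 19749 genes tested against pre-metastatic liver 83.3% were called, 39.5% as lower and 43.8% as higher, while 14.2% lay lower and 52.9% higher without overlap of RPKM. Of 19320 genes tested against control liver 82.3% were called, 38.1% as lower and 44.2% as higher, while 17.1% lay lower and 56.4% higher without overlap. The median log2 fold change of the 10 genes was -10.9 in both comparisons, against 0.13 over all genes tested in the first and 0.18 in the second. RPKM lay 1.18 above the TMM scale of the fit on the log2 scale when tumor was set against pre-metastatic liver, and 1.08 above it against control liver, which is small beside these differences.

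*Cyp27a1*, which many cell types besides hepatocytes use to dispose of cholesterol, was the highest of the 10 in the tumor, at 0.917 to 2.75 RPKM (median 1.73, 132 to 399 counts). It was 154-fold lower than in pre-metastatic liver (log2 fold change -7.27, SE 0.24, edgeR adjusted *p* = 1.06e-15), and it stood above *Cyp7b1*, the next gene, in 9 of 9 tumors. *Cyp7b1* had 0.0392 to 0.804 RPKM (median 0.297, 5 to 107 counts) and was 221-fold lower (log2 fold change -7.79, SE 0.61, edgeR adjusted *p* = 3.18e-10). The other 8 genes were 1030-fold (*Nr0b2*) to 2672-fold (*Slco1b2*) lower than in pre-metastatic liver. These folds depend on the tumors of M10 and M12, without which the log2 fold changes of the 8 genes ran from -14.65 (*Baat*) to -10.87 (*Nr1h4*), with -14.01 for *Slco1b2*, and those of *Cyp27a1* and *Cyp7b1* were -7.42 and -8.14. *Cyp7a1* had 0.00348 to 0.0999 RPKM, which is 1 to 27 counts, and was 2652-fold lower. *Cyp8b1* had 0 counts in 1 tumor and at most 52. *Baat* had 0 counts in 4 tumors, *Nr0b2* in 2, and *Nr1h4* in 1, and none of these 3 exceeded 57 counts.

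The tumors of M10 and M12 had the highest levels of hepatocyte markers. *Alb*, which hepatocytes secrete in bulk, had a median of 4.55 and a highest level of 173 RPKM in the tumors. The median of the 8 hepatocyte markers, as a percent of the liver of the same mouse, was 0.270% in M10 and 0.475% in M12, and 0.0117% to 0.0655% in the other 7 mice. In the tumors of M10 and M12, *Slco1b2* stood at 0.225% and 0.473% of the liver of the same mouse, close to those markers. In all 9 mice, *Cyp27a1* (0.792% to 2.96%, median 1.64%) and *Cyp7b1* (0.126% to 5.60%, median 0.888%) stood above each of the 8 hepatocyte markers. *Slco1b2* and *Baat* did so in 0 of 9 mice, and the other 6 genes did so in 3 to 6. Without M10 and M12, all 10 genes were again called lower in both comparisons, a setting chosen after the data had been seen. The part of liver RNA in the tumor values was not tested.

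**Figure D5:**
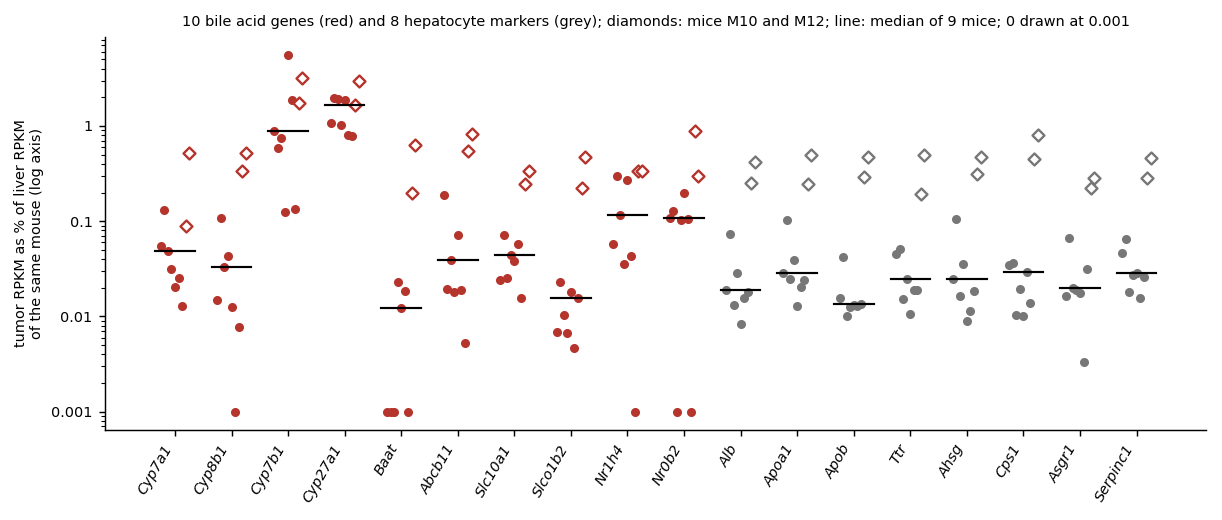
Tumor RPKM as a percent of the liver RPKM of the same mouse (vertical axis, log scale) for the 10 genes (red) and 8 hepatocyte markers (grey), 1 point per mouse, with the median of 9 mice as a line and 0 drawn at 0.001; diamonds are mice M10 and M12. *Cyp27a1* (median 1.64%) and *Cyp7b1* (median 0.888%) stand above the markers, and the other 8 genes have medians of 0.0124% to 0.116%.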

How the data were processed

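RNA-seq was performed on poly(A) RNA of 5 control livers, 9 pre-metastatic livers, and 9 primary tumors. For each of 48897 rows of a gene table, the authors deposited the raw count of each library and the RPKM, with the gene's length (a whole number of bases, per the file headers) and position on mm10. The submitters' processing notes name HISAT2, HISAT, and HTSeq 0.6.0. The annotation and the strand setting are not given in the sources used here. Each of the 46 count and RPKM columns was matched to a sample by mouse number and tissue, and RPKM recomputed from the deposited counts differed by at most 1.14e-07 of itself. A symbol on more than 1 line (2 symbols, no gene named here) was summed.

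Counts were tested with edgeR 4.0.16 in R 4.3.3 (TMM, quasi-likelihood, two-sided) on genes reaching 10 counts in 5 or more libraries of the fit, with Benjamini-Hochberg adjustment over all genes tested. Groups were those of the labels. The tumor and liver of a mouse were matched by mouse number, which the labels give to 1 animal, for the percents of the liver of the same mouse. The main test of tumor against pre-metastatic liver did not pair them, and the mouse as a block was an alternative. The deviations of the 2 tissues from their group means had a mean correlation of 0.0484 within a mouse and -0.00617 between mice. The clock and acute-phase indices used log2(RPKM + 1), the pseudocount being 1, standardized over the livers. Both indices entered 1 fit over the 9 pre-metastatic livers. Ratios were tested over all splits of the livers. DESeq2 1.42.0, upper quartile scaling, no filter, all 23 libraries in 1 fit, the clock index as a filter or covariate, an exact rank test, and leaving out each liver were run as alternatives. The fits were tested on simulated counts. In the comparison of the livers, 108 of 200 genes given a log2 change of 1 were called, with 6 false calls. A change of that size can therefore be missed. Scripts ran in Python 3.11.15 with pandas 2.3.3 and scipy 1.17.1.

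The 10 genes and the gene lists were chosen with earlier results of these data known. All 10 are named, and of each other list up to 8 called genes with the smallest *p*, plus *Hnf4a*, *Fgfr4*, *Klb*, *Nr5a2*, *Cyp2c70*, *Abcc2*, *Abcc3*, *Abcc4*, *Abcb4*, and *Slc51b* whatever their values; 1 regulator named by this rule is not reported here. *Akr1c6*, *Fdxr*, *Fgf15*, *Amacr*, *Scp2*, *Slc27a5*, *Abcd3*, and the genes of the closing observations fall outside this rule and were named after their values were seen. Nothing in the sources says that the libraries of a group were processed apart, and each comes from a mouse of its own. The count of a gene limits its precision, and intervals cover the spread between mice.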

Additional observations from a re-analysis of the deposited data

Results flagged for a closer look

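Of 90 sample groups tested for a value far from the rest (Dixon's test at 95%), 9 were flagged, and chance flags about 1 in 20 groups. Among the 10 genes, *Baat* in the tumor of M12 was at 0.317 RPKM where the median of the tumors was 0.00644, and *Nr0b2* in the tumor of M10 was at 0.132 RPKM where the median was 0.0166. These are the 2 tumors with the highest hepatocyte markers. In control liver, *Star* was at 16.2 RPKM in C6 (median 0.285), *Slco1a1* was at 72.5 RPKM in C6 (median 27.8), and *Ephx1* was at 326 RPKM in C5 (median 153). In pre-metastatic liver, *Star* was at 0.851 RPKM in M2 (median 0.346), *Hsd17b4* was at 81.6 RPKM in M6 (median 129), *Klb* was at 14.9 RPKM in M6 (median 7.92), and *Abcc4* was at 0.0698 RPKM in M7 (median 0.252). The call of *Star* rests on C6, and that of *Ephx1* on C5, as described above.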

How the results depend on the processing

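Over 88 results and 1370 recomputed values, 1279 were scored as the same. For a gene or a ratio this means the same direction and side of the threshold. For a count of called genes it means a count close to the main one, whichever genes were called. *Cyp8b1* was lower between the livers under all 21 alternatives (log2 fold change -1.83 to -1.53, adjusted *p* 1.57e-14 to 0.00913), and 10 of 10 genes were lower in the tumor in every alternative, among them the replicate block by mouse (10 of 10). Leaving out 1 control liver at a time also left 10 of 10 against control liver. The fold of *Baat* in the tumor against pre-metastatic liver moved to -4.24 with DESeq2, and the cause was not tested.

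The count of called genes among the 10 in the livers became 2 with the clock index as a covariate and was 1 to 2 when 1 liver was left out (2 without C4 or C5). That of other transporters became 11 in the livers with a clock index below 0, and was 6 to 9 with 1 liver left out. That of regulators was 3 to 7 with 1 liver left out. The count related to the clock index became 1 with each index alone, 1 without a filter, and 1 with upper quartile scaling. It became 2 with DESeq2, which called 4.47% of all genes, and was 0 to 1 with 1 liver left out (1 without M2, M6, or M7). *Cyp3a11* was -2.38 without C5. With 1 liver left out, the mean log2 ratio of pre-metastatic liver minus that of control liver was -1.41 to -0.89 for *Cyp8b1* to *Cyp7a1*. This difference was -0.22 to 0.78 for *Cyp7b1* to *Cyp7a1* and -0.070 to 0.33 for *Abcb11* to *Slc10a1*. The cause of these shifts was not tested.

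Directions reversed for values that had not passed the test, and for *Star*. With the clock index as a covariate *Cyp7b1* became 0.14 and *Nr1h4* -0.041. In the livers with an index below 0 *Slco1b2* became -0.055 and *Abcc4* -0.12. The rank test gives no fold change, and the log2 ratio of mean RPKM, with 1 added, that stood beside it was -0.062 for *Nr1h4*. With each index alone the acute-phase slope of *Abcb11* was 0.068. With 1 liver left out, log2 fold changes ran from -0.39 to 0.27 for *Cyp7b1*, -0.16 to 0.014 for *Slc10a1*, -0.036 to 0.12 for *Nr1h4*, -3.36 to 0.11 for *Star*, and -0.23 to 0.077 for *Slc51b*. Clock slopes ran from -0.075 to 0.13 for *Cyp7a1* and -0.028 to 0.0036 for *Baat*. Acute-phase slopes ran from -0.19 to 0.50 for *Cyp7a1*, -0.15 to 0.045 for *Cyp8b1*, -0.26 to 0.038 for *Abcb11*, -0.048 to 0.035 for *Slc10a1*, and -0.069 to 0.033 for *Nr1h4*.

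The intervals of *Cyp7a1* (-1.02 to 0.46) and *Cyp7b1* (-1.24 to 0.97) were wide, beside coefficients of variation of 55.4% and 64.9% in pre-metastatic liver where *Baat* had 13.3%, and changes within them were not resolved. *Nr1h2* and *Nr1h3* lost their calls without a filter (adjusted *p* = 0.0671 and 0.0813), and the fit over all 23 libraries lost *Acox2*, *Slc27a2*, *Hnf4a*, and *Nr1h3* (adjusted *p* 0.0937 to 0.486). The rank test lost *Star* and *Atp8b1*.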

Other observations

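Some genes of the wider lists ran against the near absence of the 10 genes from the tumor. *Ch25h*, which makes the oxysterol 25-hydroxycholesterol, had 10.7 to 57.3 RPKM in the 9 primary tumors (median 21.5), 0.0166 to 0.636 RPKM in pre-metastatic liver, and at most 0.202 RPKM in control liver. Its log2 fold change in the tumor against pre-metastatic liver was 5.82 (SE 0.54, edgeR adjusted *p* = 4.71e-09). *Abcc4*, which exports bile acids and other organic anions, had 3.90 to 7.02 RPKM in the tumor and at most 0.346 RPKM in any liver (log2 fold change 3.21 against pre-metastatic liver). *Abcb1a*, a drug efflux pump, had 10.6 to 25.1 RPKM in the tumor and at most 2.29 RPKM in any liver (log2 fold change 2.93). *Vdr*, a receptor for vitamin D and for lithocholic acid, had 1.28 to 3.59 RPKM in the tumor and at most 0.136 RPKM in any liver (log2 fold change 4.28). These 4 genes did not overlap between the tumor and either kind of liver, and each log2 fold change was larger than the 1.18 by which the scales of RPKM and of the fit differed. *Cyp39a1* had 3.83 to 8.59 RPKM in the tumor, above every pre-metastatic liver in RPKM. On the scale of the fit it was lower than in control liver (log2 fold change -1.92, edgeR adjusted *p* = 2.30e-06). On that same scale it was called higher than in pre-metastatic liver (log2 fold change 0.87, SE 0.32, edgeR adjusted *p* = 0.0166). This 0.87 is smaller than the 1.18 between the scales, and the gene was above pre-metastatic liver on both.

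Within the pre-metastatic livers, 1 of 21 other synthesis enzymes, 2 of 17 other transporters, and 2 of 19 regulators were called against the clock index by edgeR, where 1.39% of 16206 genes were. *Nr1i3* (slope 0.33), *Ppara* (0.32), *Abcb1a* (0.45), and *Abcc3* (0.15) were higher at a higher index, and *Hsd3b7*, the enzyme after *Cyp7a1* in the classic route, was lower (-0.28, adjusted *p* = 0.0317).

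The genes whose levels were most like those of *Cyp7a1* over the 14 livers, by Pearson's correlation of log2 library-scaled counts centered within each group, were Gm12989 (0.805), ENSMUSG00000111889.1 (0.802), 3300002I08Rik (0.774), Gm6793 (0.763), and *Wdsub1* (0.760). All 5 were at 3.60 RPKM or less in every liver. This is a description over 14 livers that share their groups' preparation.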
